A study of Mus musculus with 57 samples.

Results

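Transcript levels of 10 fibroblast growth factor (FGF) genes were followed in the embryonic mouse salivary gland: the ligand genes Fgf1, Fgf3, Fgf7, Fgf8, Fgf10 and Fgf20, and the receptor genes Fgfr1, Fgfr2, Fgfr3 and Fgfr4. They were chosen by name as the FGF genes usually studied in this organ, with earlier results of these data known. They were looked up in all 5 count tables, the largest of which list 54532 and 53608 genes. All 10 are present in 4 of the tables. The table of cultured epithelium lists 5 of them: Fgf1, Fgf7, Fgfr1, Fgfr2 and Fgfr3. The 57 RNA samples fall into 17 groups.

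Whole salivary glands (SMG in the sample titles), wild type and untreated, were dissected fresh at E13, E14, E15, E16, E17 and E18, with 4 samples (A to D) at each embryonic day. End buds, the rounded epithelial tips that branch and later form acini, were wild type and were kept for 4 h either with neuregulin 1 (NRG1, a ligand of the ERBB3 receptor tyrosine kinase) or untreated. There were 3 NRG1 and 3 control samples titled E13, and 3 NRG1 and 2 control samples titled E14. The samples titled E14 carry an E13 stage label, and one of them, NRG1 C, is labelled as 72 h, so E13 and E14 stand for the titles here. Wild-type epithelium labelled E13 plus 72 h was exposed to TORIN1, which blocks the mTOR kinase, or to DMSO as vehicle, with 4 samples each. Glands at E16 were labelled Erbb3 knockout (KO) or wild type (WT), untreated, with 4 samples each, and the labels name neither the allele nor the tissues in which it was deleted. Wild-type E13 epithelium was grown with NRG1 for 48, 72 or 96 h (days 2, 3 and 4), with 2 samples a day and no untreated culture at those times. Whether samples are separate litters or cultures is not stated, so that p-values here cover only the spread among samples, part of which may be technical.

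FGFs are secreted proteins that bind, together with heparan sulfate, to 4 receptor tyrosine kinases. Bound receptors recruit the adaptor FRS2 and activate the ERK kinase cascade, which switches on the ETS factors ETV4 and ETV5 and the feedback inhibitors of the Sprouty and DUSP families. In the salivary gland FGF10 and FGF7 are made by the mesenchyme and act on the epithelial splice form of FGFR2, called IIIb, and mice without Fgf10 or that receptor form do not develop the gland. FGF1 can activate all receptors. The counts are per gene, so splice forms of the receptors could not be separated.

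Positions are in the mm10 (GRCm38) build, and all 10 genes are protein coding. Fgf10 (ENSMUSG00000021732) spans chromosome 13 from 118669791 to 118792115 on the plus strand and Fgf7 (ENSMUSG00000027208) chromosome 2 from 126034658 to 126091185 on the plus strand. Fgfr1 (ENSMUSG00000031565) spans chromosome 8 from 25513654 to 25575718 on the plus strand. The annotated Fgfr2 gene (ENSMUSG00000030849) covers chromosome 7 from 130162451 to 133123350 on the minus strand and shares exon positions with Ctbp2 on that strand, so the exon length used for Fgfr2 is uncertain and reads of both genes could be confused. Exons of Fgf10, Fgf20, Fgfr1 and Fgfr3 overlap a gene on the opposite strand, and no source used here states whether strand was used in counting.

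The 250 bases before the start site of Fgf7 and Fgf10, the ligands of the IIIb receptor both of which were lower in E18 than in E13 glands, are printed 5′ to 3′ from RefSeq on GRCm38.p6, plus strand. Fgf7 is chr2:126034408-126034657 with 43.6% G and C bases, and Fgf10 is chr13:118714449-118714698 with 61.2%. The Fgf10 window precedes the RefSeq start site, which lies inside the longer Ensembl span. Capitals mark matches to 6 short motifs that were searched on both strands.
Fgf7: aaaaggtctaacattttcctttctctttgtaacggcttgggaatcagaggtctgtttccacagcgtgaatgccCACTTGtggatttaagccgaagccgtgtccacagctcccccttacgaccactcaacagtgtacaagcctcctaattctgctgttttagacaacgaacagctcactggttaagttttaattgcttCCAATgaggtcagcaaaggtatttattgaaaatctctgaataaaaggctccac
Fgf10: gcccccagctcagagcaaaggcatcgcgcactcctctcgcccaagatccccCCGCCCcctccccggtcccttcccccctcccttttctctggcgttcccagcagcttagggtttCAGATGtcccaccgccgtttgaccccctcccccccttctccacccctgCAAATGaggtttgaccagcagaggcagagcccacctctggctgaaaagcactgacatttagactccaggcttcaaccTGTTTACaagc
In the Fgf7 window an E-box (CANNTG) starts 177 bases before the start site and a CCAAT box (CCAAT) 53 bases before it. In the Fgf10 window a GC box (GGGCGG, here on the minus strand) starts 199 bases before the start site, E-boxes start 136 and 88 bases before it, and a forkhead motif (TGTTTAC) starts 11 bases before it. No marked motif overlapped another. Among 32851 mouse promoter windows of this length, 66.2% hold the E-box, 33.8% the CCAAT box, 32.7% the GC box and 3.2% the forkhead motif, and the others searched, the ETS motif (CCGGAAGT, 2.9%) and the TATA motif (TATAAA, 12.4%), were in neither window. The windows of Fgf7 and Fgf10 share the E-box, which is found in most promoters.

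Each gland library held 13033868 to 25935489 counts. The range was 16027377 to 26306020 for end buds, 16318997 to 19671988 for TORIN1 and DMSO, and 8913271 to 11890488 for KO and WT. Totals of the culture table cover part of a library and are no depth, so its levels are on another scale than those of the other tables. Levels are CPM, counts scaled to a common library total, over the counts of tested genes and edgeR's TMM factors, and log2 fold changes are given with their standard error (SE). Sample E18 D had the lowest factor, 0.701, which raises its levels. Summed over 11 mesenchymal marker genes, its level of 5024 CPM was the lowest of the glands, and its 7 skeletal muscle markers were the highest, at 832 CPM. In glands the 11 epithelial markers summed to 3936 to 6200.2 CPM at E18, against 1036 to 1185 CPM at E13, and the mesenchymal markers to 5024 to 11515 CPM at E18, against 13682 to 13955 CPM at E13. In bulk tissue, fewer cells of a type and less RNA per cell cannot be told apart.

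Fgf3, Fgf8 and Fgf20, ligands of early ectoderm and of budding organs, were barely detected. In the 24 gland libraries Fgf3 was at 0 in 13, Fgf8 in 19 and Fgf20 in 10, and their highest counts were 8, 3 and 10. All 3 failed the filter on low counts there and in the TORIN1 and KO tables. A count of 0 allows a level of up to 0.110 to 0.229 CPM in the gland libraries (3 counts, counting error only). At E17 and E18 Fgf3 and Fgf20 had no count in any library, whereas at E13 to E15 they reached at most 0.411 and 0.513 CPM. Fitted without the filter, both were called lower at E18 than at E13 (adjusted p = 0.00683 for Fgf3 and 0.00371 for Fgf20), and their fold changes rest on libraries at 0. Of the 8 KO and WT libraries Fgf3 was at 0 in 5, Fgf8 in 4 and Fgf20 in 4. In end buds Fgf8 was at 0 in 10 of 11 libraries and Fgf3 in 3 of 11, with counts of at most 7. Fgf20 passed the filter there, with 0.271, 0.762 and 0.794 CPM in NRG1 and 1.14, 0.768 and 0.356 CPM in control samples at E13. At these levels no difference of Fgf20 was detectable.

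The stage series asks how the genes changed while the gland grew from an early branching epithelium to a gland with forming acini. At E18 the ligands had gone apart relative to E13: Fgf10 and Fgf7, the IIIb ligands, fell, and Fgf1 rose. Of the receptors, Fgfr1, Fgfr2 and Fgfr4 fell and Fgfr3 rose. All 7 members that passed the filter were called between E18 and E13 by edgeR's quasi-likelihood test at a Benjamini-Hochberg adjusted p under 0.05, against 72.7% of all 16521 genes tested, and 5 of them were called lower, against 36.2% of all genes. Without sample E18 D all 7 were still called. With so many of all genes called, the count of members is no result by itself.

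Fgf10 had 26.1, 36.8, 24.5 and 24.9 CPM at E18, against 164, 161, 162 and 147 CPM at E13. The stages did not overlap, and Fgf10 fell by a factor of 5.64 (log2 fold change -2.50 ± 0.14, adjusted p = 7.05e-14). It stepped down at each of the first intervals: the E14 samples had 91.8, 81.3, 92.5 and 86.96 CPM, the E15 samples 49.99, 49.2, 41.96 and 63.4 CPM and the E16 samples 28.6, 36.95, 34.1 and 33.1 CPM. The fall between neighbouring stages was called for E14 over E13 (-0.85 ± 0.13), E15 over E14 (-0.79 ± 0.13) and E16 over E15 (-0.62 ± 0.13). It was not called for E17 over E16 (-0.36 ± 0.13, adjusted p = 0.127) or E18 over E17, where the log2 difference ± 2 SE was -0.15 to 0.38.

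Fgf7 had 11.5, 9.37, 8.81 and 5.20 CPM at E18, against 14.4, 19.98, 16.8 and 19.7 CPM at E13. All E18 samples were below all E13 samples (log2 fold change -1.02 ± 0.16, adjusted p = 6.29e-06), but the course had a low point in between. At E16 the samples had only 4.73, 4.84, 4.85 and 5.45 CPM, against 11.5, 11.5, 10.5 and 10.7 CPM at E15 (log2 fold change -1.15 ± 0.17, adjusted p = 1.36e-05). From E17, with 6.21, 6.15, 5.10 and 5.20 CPM, Fgf7 rose again to its E18 level (log2 fold change 0.62 ± 0.17, adjusted p = 0.0148). That rise was lost without sample E18 A (adjusted p = 0.0758), in a fit of the E17 and E18 samples alone (0.180) and without normalization factors (0.111). The call held in the other 11 of 14 alternatives. Sample E18 D stayed at the E17 level, and without it the rise was 0.79 (adjusted p = 0.000144).

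Fgf1, which binds every FGF receptor, had 73.4, 70.6, 76.1 and 61.1 CPM at E18, against 27.3, 23.6, 27.1 and 27.3 CPM at E13. No sample of one stage reached the other, and the level was 2.67-fold higher at E18 (log2 fold change 1.42 ± 0.09, adjusted p = 1.15e-12). Most of that difference was present at E14, where the samples already had 60.4, 55.3, 51.8 and 55.1 CPM (log2 fold change 1.08 ± 0.09, adjusted p = 5.63e-09). None of the later steps was called with all samples, although the step to E16 was called without sample E15 B (0.31, adjusted p = 0.00665) and the step to E18 without sample E18 D (0.24, adjusted p = 0.0455). Over E15, E16 and E17 the means were 57.5 ± 7.24, 66.2 ± 3.59 and 62.2 ± 2.14 CPM (SD, n = 4 each).

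**Figure D1:**
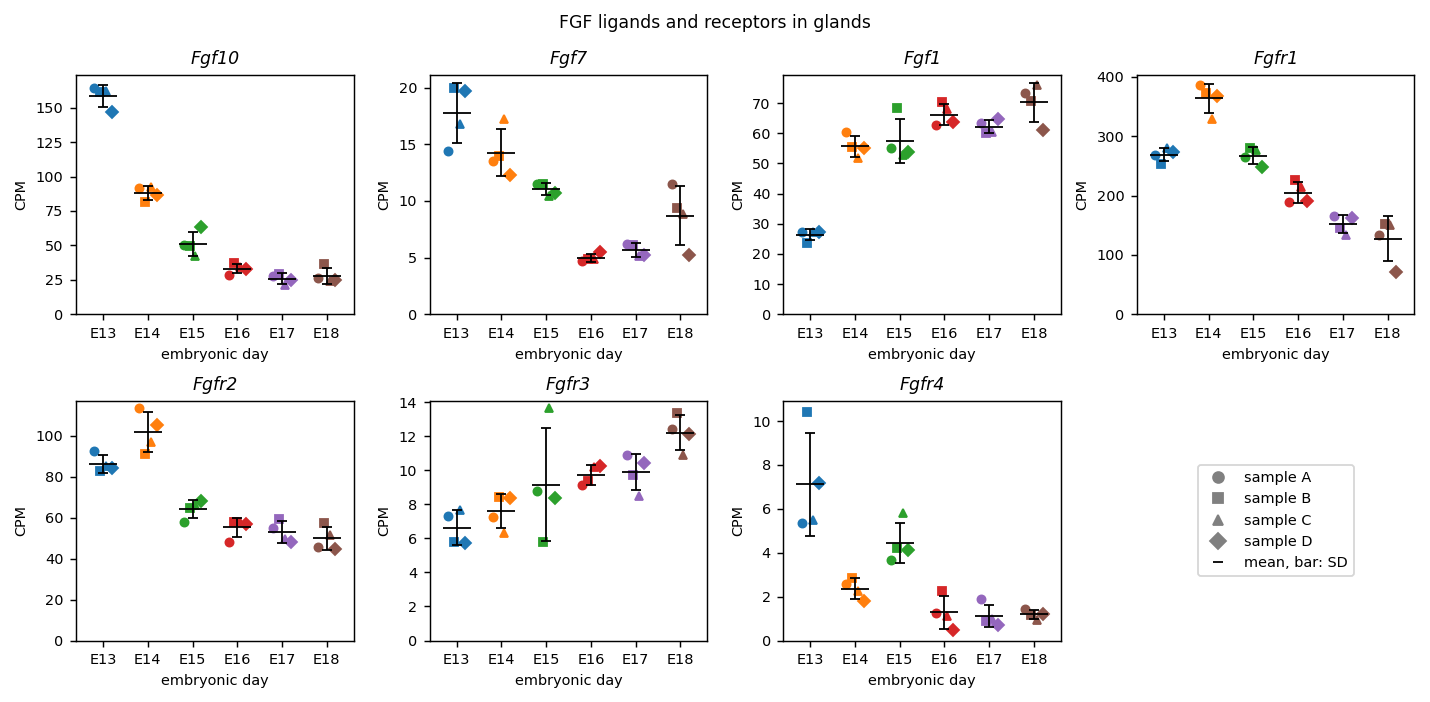
Levels of the 7 FGF genes that passed the filter, in CPM on linear axes from 0, in whole glands at E13 to E18. Points are single samples (A to D by shape), with the mean and SD (n = 4). Fgf10 and Fgfr4 end low, Fgf1 stands at 51.8 CPM or more from E14 on, and Fgfr1 is highest at E14.

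Fgfr1, the leading receptor gene per kilobase in every gland stage, had 133, 153, 151 and 71.7 CPM at E18, against 268, 253, 280.01 and 274 CPM at E13. It was lower in every E18 sample (log2 fold change -1.08 ± 0.15, adjusted p = 6.17e-07), and the difference was -0.89 without sample E18 D, which had the lowest level. At E14 it was first higher, with 386, 372, 329 and 368 CPM (log2 fold change 0.44 ± 0.15, adjusted p = 0.0364), although the E14 call was lost without each E13 sample, without E14 A, B or D, and without normalization factors (adjusted p from 0.0531 to 0.0966 in those fits). It then fell to 265, 280.1, 276 and 249 CPM at E15 (log2 fold change -0.44 ± 0.15, adjusted p = 0.0147), a call that missed the threshold without factors (0.0535). The E17 samples had 166, 146, 133 and 163 CPM.

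Fgfr2, the receptor gene for FGF7 and FGF10, had 45.7, 57.2, 51.7 and 44.9 CPM at E18, against 92.3, 82.7, 85.4 and 84.3 CPM at E13. The stages did not overlap (log2 fold change -0.79 ± 0.10, adjusted p = 1.00e-07). With all samples, the only called step between neighbouring stages was at E15, with 57.7, 64.8, 66.3 and 68.1 CPM, against 114, 91.1, 96.8 and 105 CPM at E14 (log2 fold change -0.66 ± 0.09, adjusted p = 5.49e-06). A rise at E14 over E13 missed the threshold, but it was called in a fit of those 2 stages alone (0.24, adjusted p = 0.0161) and without sample E14 B (0.29, adjusted p = 0.0441). Epithelial markers summed to 2469 to 3116 CPM at E15, against 1667 to 1876 CPM at E14, and mesenchymal markers to 8295 to 10054 CPM at E15, against 12525 to 12813 CPM at E14, and their part in the Fgfr2 value was not tested.

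Fgfr3 had 12.5, 13.4, 10.9 and 12.2 CPM at E18, against 7.34, 5.79, 7.68 and 5.75 CPM at E13. It was higher in all 4 E18 samples (log2 fold change 0.88 ± 0.18, adjusted p = 0.000126), and with all samples no single step between neighbouring stages was called. The step to E15 was called without sample E15 B (0.43, adjusted p = 0.0266). The sample E15 C, at 13.7 CPM, was the highest of all glands.

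Fgfr4, which is expressed in skeletal muscle precursors among other tissues, had 1.42, 1.18, 0.928 and 1.22 CPM at E18, against 5.37, 10.4, 5.49 and 7.19 CPM at E13. It fell to a low level (log2 fold change -2.57 ± 0.34, adjusted p = 4.62e-07), but not steadily. It fell at E14 (log2 fold change -1.58 ± 0.32, adjusted p = 0.000819), rose at E15 (log2 fold change 0.91 ± 0.32, adjusted p = 0.0212) and fell again at E16 (log2 fold change -1.75 ± 0.33, adjusted p = 0.000348). The rise at E15 was lost without E14 D (adjusted p = 0.0675) or E15 C (0.0708). The 7 muscle markers summed to 121 to 456 CPM at E13, 60.1 to 79.4 CPM at E14, 94.3 to 531 CPM at E15, 12.1 to 397 CPM at E16, 15.5 to 556 CPM at E17 and 46.8 to 832 CPM at E18. In all 24 glands Myog, a myoblast transcription factor gene, was detected, and Myod1 was at 0 in 5. Within E13 the sample with the highest Fgfr4, E13 B at 10.4 CPM, also had the highest muscle sum and the highest Myog, at 46.1 CPM. Within E18 Fgfr4 spanned only 0.928 to 1.42 CPM, at 16 to 24 counts a sample, too narrow a range to rank the samples. There sample E18 D had a muscle sum of 832 CPM and 1.22 CPM of Fgfr4, and E18 A had 222 CPM and 1.42 CPM. The part of muscle cells in the Fgfr4 values was not tested.

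Called members per neighbouring step were 4 of 7 for E14 over E13 (19.5% of all genes), 4 of 7 for E15 over E14 (49.7%), 3 of 7 for E16 over E15 (23.5%) and 1 of 7 for E18 over E17 (13%). For E17 over E16, where 5.5% of all genes were called, no member was called. There 2 members, Fgf10 and Fgfr1, had an unadjusted p under 0.05, DESeq2 called 0, and both were called in a fit of the E16 and E17 samples alone. The members' share was closest to that of all genes for E18 over E17.

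Compared per kilobase of exon, the order of the genes changed between the stages. At E13 Fgf10 led with 34.5 ± 1.74 CPM per kb (SD, n = 4), followed by Fgfr1 with 27.2 ± 1.15, Fgfr2 with 8.34 ± 0.411, Fgf7 with 5.46 ± 0.813, Fgf1 with 4.82 ± 0.331, Fgfr4 with 2.01 ± 0.665 and Fgfr3 with 0.927 ± 0.141. Of these neighbours, Fgf7 and Fgf1 did not differ beyond their spread. At E18 Fgf1 with 12.9 ± 1.20 CPM per kb and Fgfr1 with 12.9 ± 3.84 could not be ordered, followed by Fgf10 with 6.10 ± 1.27, Fgfr2 with 4.83 ± 0.555, Fgf7 with 2.68 ± 0.803, Fgfr3 with 1.71 ± 0.142 and Fgfr4 with 0.335 ± 0.0569. At that stage Fgf10 and Fgfr2 lay within their spread, and samples of Fgf7 and Fgfr3 overlapped. Fgf10 was the first gene at E13 and Fgfr1 at E14 to E17.

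Of all genes tested, 36.2% fell and 36.5% rose between E18 and E13, with a median log2 fold change of 0.01, and the lists of other FGF pathway genes are given beside those shares. Of 16 other ligand genes 6 were tested and all 6 fell (list median -2.47), among them Fgf9, an epithelial ligand in many organs (-3.86 ± 0.21), Fgf12, an intracellular FGF relative (-2.75 ± 0.29), and Fgf2 (-2.58 ± 0.58). Of 10 coreceptors and FGF-binding proteins 7 fell (list median -2.59), led by Flrt3 (-3.52 ± 0.17) and Flrt2 (-3.47 ± 0.17), membrane proteins that bind FGF receptors, and by the Klotho gene Kl (-3.22 ± 0.31). The 2 that rose were Cd44, a hyaluronan receptor (2.71 ± 0.11), and Fgfbp1, which releases FGFs from the matrix (2.41 ± 0.15).

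Heparan sulfate, the sugar partner of FGF binding, is built by enzymes of which 13 of 19 fell and 1 rose, with a list median of -1.02. The sulfotransferase gene Hs3st2 had no count in the 4 E18 samples, against 1.11 ± 0.149 CPM at E13 (SD, n = 4). Hs6st3 (-3.76 ± 0.63) and Hs6st2 (-3.11 ± 0.16) fell, and Ndst3 rose (0.79 ± 0.23). Of 12 proteoglycan core genes 8 fell and 3 rose (list median -0.75): the glypicans Gpc3 (-2.38 ± 0.08) and Gpc1 (-2.06 ± 0.11) fell, and the syndecan Sdc4 rose (1.28 ± 0.14). Of 23 intracellular transducers (list median -0.35) 12 fell, such as the adaptor gene Crkl (-1.21 ± 0.28), and 4 rose, such as Pik3r1, a regulatory subunit of PI3 kinase (1.43 ± 0.11). No list was tested as a whole.

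Among 19 feedback inhibitors and target genes 9 fell and 6 rose, with a list median of -0.13. The ETS factor genes went apart: Etv5 (-2.18 ± 0.07) and Etv4 (-1.99 ± 0.17) fell together with Il17rd, an inhibitor of FGF signalling (-1.59 ± 0.16), whereas Etv1 rose (3.26 ± 0.16), as did the ERK phosphatase gene Dusp5 (2.29 ± 0.19) and Sox9, a transcription factor of distal epithelial progenitors (1.40 ± 0.09). Of the 4 splicing regulators that act on FGF receptor transcripts, the epithelial factors Esrp2 (1.86 ± 0.19) and Esrp1 (1.66 ± 0.08) rose and Rbfox2 (-1.21 ± 0.13) and Ptbp1 (-0.92 ± 0.21) fell. Esrp1 and Esrp2 are also on the list of epithelial markers, of which 9 of 11 rose, while 7 of 11 mesenchymal markers fell and 2 rose. The part of tissue composition in these counts was not tested.

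The genes whose course over the 24 gland samples was most like that of each member were listed by Pearson's r of log2(CPM + 1), among tested genes with a mean of at least 5 CPM. These values describe samples that share 6 stages. For Fgf10 they were the mesenchymal transcription factor gene Prrx1 (r = 0.989), Nr2f2 (0.985) and Adamts19 (0.985). For Fgf7 they were Adam11 (0.933), the small proteoglycan gene Dcn (0.932) and Lmcd1 (0.929), and for Fgf1 Nbeal2 (0.965), Map3k21 (0.963) and Tfcp2l1 (0.960). Prrx1 and Dcn are on the mesenchymal marker list.

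Among the receptors, Fgfr1 ran closest to Igsf3 (r = 0.988), the Notch ligand gene Jag2 (0.984) and Adamts7 (0.981), and Fgfr2 to Ankfy1 (0.978), Mbnl3 (0.978) and Ahctf1 (0.978). Fgfr3 had the weakest likeness, to Srcin1 (0.874), Adam33 (0.863) and Thy1 (0.857). Fgfr4 ran closest to Myog (0.957), then to Iffo1 (0.924) and Ddc (0.907). Myog was the only gene with r over 0.95 to Fgfr4, whereas Fgf10 had 280 such genes.

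The end bud samples ask what 4 h of NRG1 does to the same genes in epithelium. In E13 buds NRG1 left more Fgf1 and Fgfr1 and less Fgfr2, Fgfr3 and Fgfr4. Of 8 members tested 5 were called, against 42.4% of 16180 genes, and 3 were called lower, against 19.3%. The receptors moved in opposite directions, and the IIIb ligands Fgf7 and Fgf10 stayed near 1 CPM.

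Fgfr2 had 319.7, 321 and 308 CPM in E13 buds with NRG1, against 589, 618 and 676 CPM in controls. The groups were far apart (log2 fold change -0.99 ± 0.13, adjusted p = 7.90e-05). Fgfr1 had 824, 909 and 912 CPM with NRG1, against 596, 677 and 564 CPM in controls, and every NRG1 sample was higher (log2 fold change 0.53 ± 0.10, adjusted p = 0.000493). Per kilobase the ratio of Fgfr1 to Fgfr2 was 2.92 ± 0.206 with NRG1 and 1.03 ± 0.139 in controls (SD, n = 3 each), so the genes were about equal in controls, subject to the uncertain exon length of Fgfr2.

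Fgfr3 had 9.01, 7.57 and 8.14 CPM with NRG1, against 14.97, 13.3 and 26.8 CPM in controls (log2 fold change -1.16 ± 0.24, adjusted p = 0.00211). Fgfr4 had 3.69, 3.24 and 3.77 CPM with NRG1, against 8.14, 6.91 and 18.2 CPM in controls (log2 fold change -1.65 ± 0.46, adjusted p = 0.0172). For both genes the groups did not overlap, and control C was the highest sample for both genes. The Fgfr4 call was lost without each single NRG1 sample (adjusted p from 0.0513 to 0.0583).

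Fgf1 had 40.5, 39.6 and 39.6 CPM with NRG1, against 19.3, 16.8 and 16.9 CPM in controls. The NRG1 samples lay within 1 CPM of each other and above every control (log2 fold change 1.17 ± 0.22, adjusted p = 0.00204). Fgf7 had 0.977, 1.24 and 1.09 CPM with NRG1, against 1.42, 1.12 and 0.95 CPM in controls, and Fgf10 0.705, 0.715 and 1.29 CPM, against 1.42, 0.236 and 1.15 CPM. These overlapped, and the log2 difference ± 2 SE was -0.97 to 0.82 for Fgf7 and -2.04 to 1.77 for Fgf10.

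**Figure D2:**
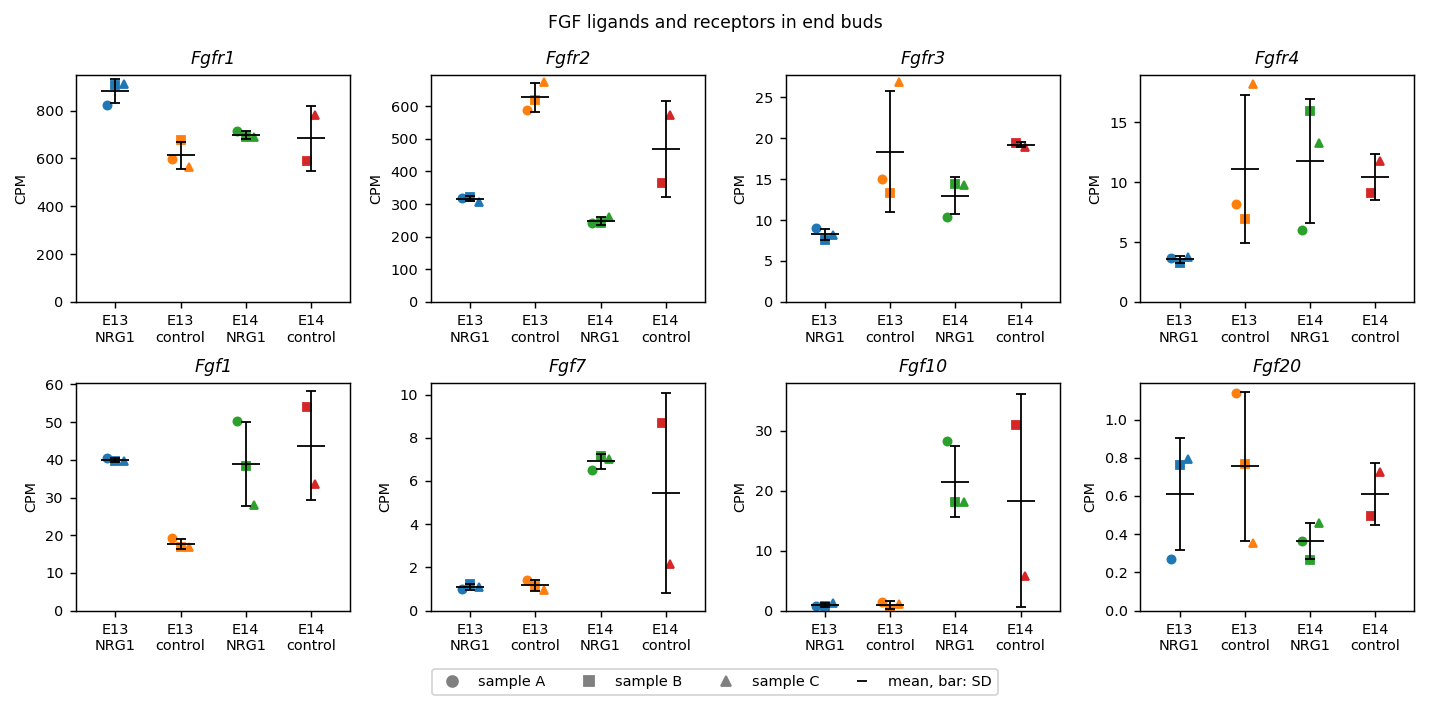
Levels of 8 FGF genes in CPM on linear axes from 0 in end buds titled E13 and E14, with NRG1 to the left of control. Points are single samples, with the mean and SD (n = 3, and n = 2 for E14 control). Fgfr2 lies lower with NRG1 at both titles, and the 2 controls of E14 lie on either side of the NRG1 samples for Fgf7 and Fgf10.

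In E14 buds Fgfr2 was the 1 member called of 8, against 36.2% of all genes. It had 241, 242 and 261 CPM with NRG1, against 364 and 573 CPM in the controls B and C (log2 fold change -0.92 ± 0.14, adjusted p = 0.000398). The groups did not overlap, and the log2 fold change was -1.20 without control B and -0.55 without control C. Those fits have 1 control, which is assumed to vary like the other end bud groups. The controls also differed in mesenchymal markers, which summed to 5364 CPM in control B and 1688 CPM in control C. With NRG1 they summed to 3954 to 4869 CPM, and their part in the Fgfr2 value was not tested. Per kilobase the ratio of Fgfr1 to Fgfr2 was 2.95 ± 0.170 with NRG1 (n = 3) and 1.56 ± 0.186 in controls (n = 2). Fgfr3, with 10.4, 14.4 and 14.3 CPM, against 19.5 and 18.99 CPM in controls, was lower in all 3 NRG1 samples but missed the threshold (log2 fold change -0.56 ± 0.26, adjusted p = 0.114). DESeq2 called it (adjusted p = 0.0473).

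The values of Fgf7 and Fgf10 in E14 buds rested on which of the 2 controls was used. Fgf10 had 28.3, 18.1 and 18.1 CPM with NRG1, against 30.9 and 5.74 CPM in controls B and C, and Fgf7 had 6.53, 7.16 and 7.02 CPM, against 8.71 and 2.17 CPM. Control B was above all NRG1 samples for both genes and control C below them all. Without control B both were called higher with NRG1, by 1.67 for Fgf7 and 1.91 for Fgf10 on the log2 scale, and without control C the estimates were -0.33 and -0.52 and not called, in both cases with the spread taken from the other groups. Mesenchymal markers summed to 3954 to 4869 CPM with NRG1, against 5364 CPM in control B and 1688 CPM in control C. All 11 markers had counts in every E14 sample. The part of mesenchyme in these values was not tested.

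Fgfr4 had 6.03, 15.97 and 13.3 CPM with NRG1, against 9.08 and 11.8 CPM in E14 controls, and the groups overlapped (log2 fold change 0.17 ± 0.48, adjusted p = 0.818). For Fgf1 and Fgfr1 the response itself was set against that of E13 buds. Fgf1 had 50.2, 38.3 and 28.01 CPM with NRG1, against 53.97 and 33.5 CPM in E14 controls, and Fgfr1 715, 688 and 689 CPM, against 588 and 781 CPM. In the test of the difference between the NRG1 effects at E14 and E13, 0 of 8 members were called, against 2.27% of all genes. The estimates were -1.34 ± 0.32 for Fgf1 (adjusted p = 0.0716) and -0.50 ± 0.14 for Fgfr1 (adjusted p = 0.0901). In this test 3 members, Fgf1, Fgfr1 and Fgfr4, had an unadjusted p under 0.05, and DESeq2 called 2, Fgf1 and Fgfr1. With 1 sample left out, the adjusted p of Fgf1 ran from 0.0144 to 0.161. Without control B of E14, Fgf7 (1.75) and Fgfr1 (-0.69) were called, and without control C, Fgf1 (-1.64) and Fgfr2 (0.45), again with 1 control and the spread of the other groups.

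Between the untreated controls, E14 buds had more Fgf10, Fgf7 and Fgf1 than E13 buds. These were 3 of 8 members, all higher, against 23.6% of all genes called in either direction and 14.4% called higher. Fgf10 had 30.9 and 5.74 CPM at E14, against 1.42, 0.236 and 1.15 CPM at E13 (log2 fold change 4.19 ± 0.77, adjusted p = 0.00624), and Fgf7 8.71 and 2.17 CPM, against 1.42, 1.12 and 0.95 CPM (log2 fold change 2.21 ± 0.43, adjusted p = 0.00283). Without control B, Fgf7 was not called (0.89, adjusted p = 0.0736), and Fgf10 was 2.51 and still called. In a fit of the 2 compared groups alone Fgf10 missed the threshold (adjusted p = 0.0576). Mesenchymal markers summed to 5364 and 1688 CPM at E14, against 283 to 689 CPM at E13, and their part was not tested. Fgf1 had 53.97 and 33.5 CPM at E14, against 19.3, 16.8 and 16.9 CPM at E13 (log2 fold change 1.30 ± 0.24, adjusted p = 0.00446), and no sample overlapped. Fgfr2 missed the threshold (-0.42 ± 0.14, adjusted p = 0.0548), but it was called lower with the replicate block (-0.46, adjusted p = 0.0375), by DESeq2 (adjusted p = 0.0114) and without control C (-0.79, adjusted p = 8.3e-06).

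**Figure D3:**
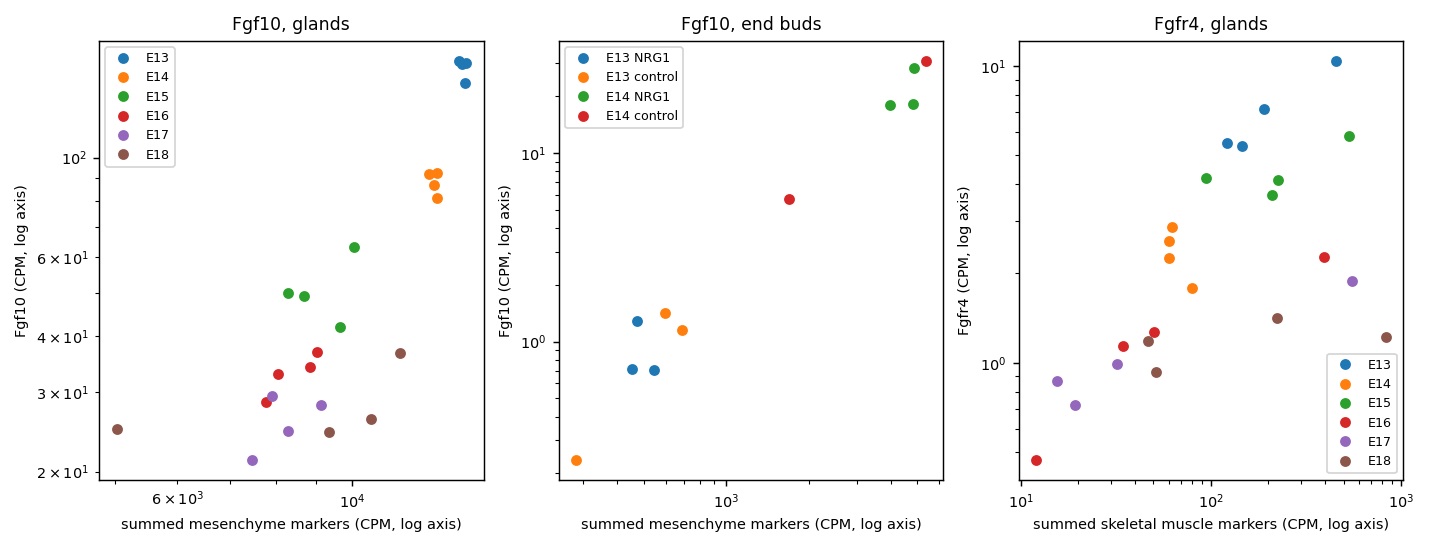
Fgf10 against the summed mesenchymal markers in glands and in end buds, and Fgfr4 against the summed skeletal muscle markers in glands, all in CPM on log axes. Each point is 1 sample, coloured by stage or group. The E14 control at 1688 CPM of mesenchymal markers lies between the E13 samples and the other E14 samples for Fgf10, and within single stages of the glands the points spread.

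All end bud samples carried epithelial markers, summing to 4159 to 4974 CPM. They also carried Col2a1, a collagen gene known from cartilage, at 958 CPM on average with NRG1 and 1088 CPM in controls at E13, and 6 cartilage markers summed to 1416 to 1473 CPM with NRG1 at E13, against 1520 to 1899 CPM in controls. At E14 the cartilage sum was 778 to 853 CPM with NRG1, against 797 and 868 CPM in controls.

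The targets of FGF and ERK signalling answered NRG1 in the same buds. Of 19 feedback inhibitors and targets, 18 were higher with NRG1 at E13 and none lower, with a list median of 2.04, beside 23.1% of all genes called higher and a median of -0.02. Etv5 rose by 6.38 ± 0.56, the ERK phosphatase gene Dusp6 by 5.50 ± 0.47 and Etv1 by 3.99 ± 0.35 on the log2 scale. At E14, 14 were higher, beside 20.2% of all genes, and 2, Il17rd and Spred3, lower, with a list median of 1.04. Etv5 rose by 3.17 ± 0.54, Dusp6 by 2.44 ± 0.45 and the early response gene Egr1 by 2.31 ± 0.10. The effect at E14 was called lower for 10 of the 19, beside 1.53% of all genes, led by Myc (-1.59 ± 0.32), the cyclin gene Ccnd1 (-1.53 ± 0.25) and the Sprouty gene Spry2 (-1.48 ± 0.23), with none of the 19 called higher. The E14 controls themselves had 17 of the 19 higher than the E13 controls, beside 14.4% of all genes, for example Etv5 (3.01 ± 0.57). These controls also enter both NRG1 effects, so the values are not independent. Endothelial markers summed to 199.5 to 324 CPM in E14 controls, against 4.49 to 18.8 CPM in E13 controls. Erythroid markers summed to 132 to 611 CPM in E14 controls, against 7.33 to 17.3 CPM in E13 controls, and mesenchymal markers differed as given above. The part of tissue composition in the target values was not tested.

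Outside that list, 9 of 18 heparan sulfate enzymes were higher with NRG1 at E13 and 1 lower (list median 0.37), led by Hs3st3a1 (2.12 ± 0.16) and Hs3st1 (1.44 ± 0.26). Of all genes, 23.1% were called higher there and 19.3% lower. At E14, 3 of these enzymes were higher and 1 lower, beside 20.2% of all genes called higher and 36.2% called in either direction. Fgfbp1 was higher at both titles, by 1.07 ± 0.21 at E13 and 0.98 ± 0.24 at E14, and so was the endocrine ligand gene Fgf21, by 1.51 ± 0.41 and 1.57 ± 0.57. Of the 23 transducers 7 were higher and 4 lower at E13, and 4 higher and 5 lower at E14, shares near those of all genes. Among them the docking protein gene Gab1 was lower (-0.84 ± 0.06 at E13 and -0.77 ± 0.06 at E14). Among splicing regulators Esrp1 was lower at both titles (-0.27 ± 0.07 and -0.44 ± 0.08).

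The TORIN1 samples ask what inhibition of mTOR does in epithelium after 72 h. Fgfr1, Fgfr2 and Fgfr3 were higher with TORIN1 than with DMSO, and none of the 3 ligand members tested was called. The called receptors were 3 of 6 members tested, all higher, against 5.83% of 14985 genes called in either direction and 2.46% called higher. Fgfr4, at counts of at most 5, did not pass the filter, and Fgf3 had 0 counts in all 8 libraries.

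Fgfr1 had 426, 477, 792 and 742 CPM with TORIN1, against 308, 295, 301 and 363 CPM with DMSO (log2 fold change 0.94 ± 0.20, adjusted p = 0.0317). Fgfr2 had 178, 186, 259 and 245 CPM with TORIN1, against 119, 106, 122 and 174 CPM with DMSO (log2 fold change 0.74 ± 0.18, adjusted p = 0.0475). Fgfr3 had 41.6, 42.9, 39.3 and 37.03 CPM with TORIN1, against 33.3, 28.3, 32.7 and 26.8 CPM with DMSO (log2 fold change 0.41 ± 0.10, adjusted p = 0.0493). For each gene all 4 TORIN1 samples were above all 4 DMSO samples, and for Fgfr1 and Fgfr2 the samples TORIN1 C and D were well above A and B. The calls were close to the threshold: when 1 sample was left out, 0 to 3 members were called, with adjusted p up to 0.112 for Fgfr1, 0.148 for Fgfr2 and 0.150 for Fgfr3. No member was called without DMSO A, B or C or without TORIN1 C or D, 1 without DMSO D or TORIN1 B, and 3 without TORIN1 A. The Fgfr3 call was also lost without the filter on low counts (adjusted p = 0.102) and with the replicate block (0.0532). All genes called ranged from 144 to 3856 in those fits.

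Per kilobase Fgf1 led the ligand members in this epithelium, and other FGF ligands were not ranked. It had 194, 200.02, 118 and 127 CPM with TORIN1, against 126, 152, 127 and 91.3 CPM with DMSO. The groups overlapped and the gene was not called (log2 fold change 0.37 ± 0.21, adjusted p = 0.335). Fgf7 had 6.85, 10.7, 11.6 and 13.8 CPM, against 16.3, 5.83, 8.88 and 12.3 CPM (-0.01 ± 0.31, adjusted p = 0.985), and Fgf10 stayed at or below 2.50 CPM in all 8 samples. Mesenchymal markers summed to 148 to 242 CPM with TORIN1, against 202 to 337 CPM with DMSO.

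Of the other pathway genes few were called with TORIN1. Fgf9 was higher (0.89 ± 0.18) and Fgf21 lower (-2.39 ± 0.48) among 5 other ligands. None of 9 coreceptors was called, and of 15 heparan sulfate enzymes 4 were higher (list median 0.21), beside 2.46% of all genes, led by the heparanase gene Hpse (1.03 ± 0.15). All genes had a median of 0.02, and the counts of list genes come from the fit with all samples, whose number of called genes moved with single samples as given above. Among the 19 feedback inhibitors and targets (list median 0.24), Kit (0.89 ± 0.15), Ccnd1 (0.65 ± 0.13) and Myc (0.42 ± 0.07) were higher and Etv1 (-0.88 ± 0.15) and Dusp5 (-0.72 ± 0.17) lower.

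**Figure D4:**
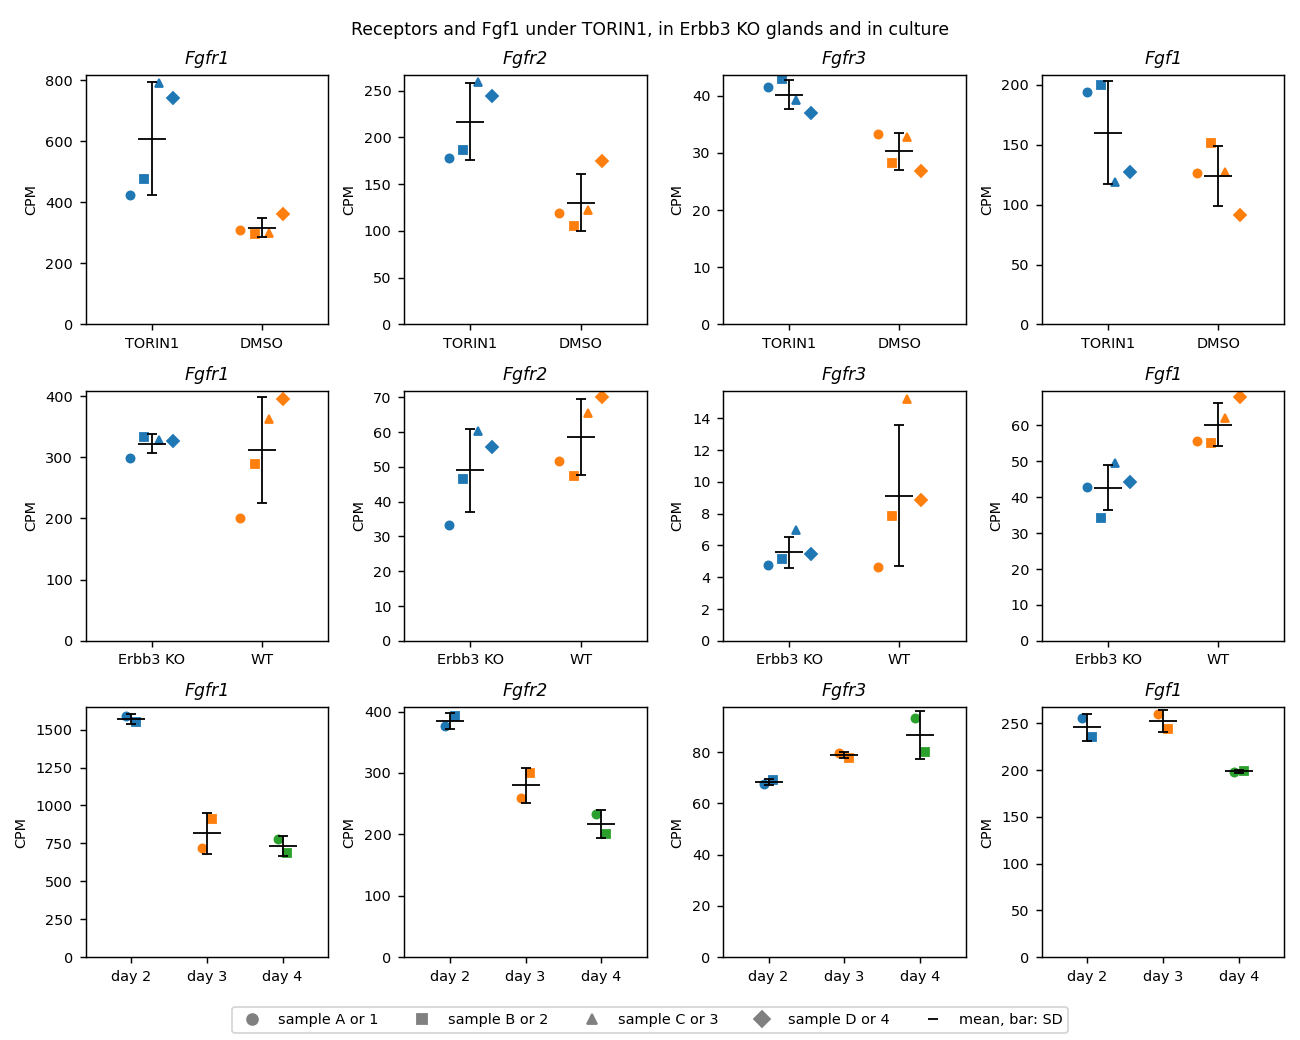
Levels of Fgfr1, Fgfr2, Fgfr3 and Fgf1 in CPM on linear axes from 0, with epithelium given TORIN1 or DMSO on top, E16 glands labelled Erbb3 KO or WT in the middle and epithelium cultured with NRG1 at days 2, 3 and 4 below. Points are single samples, with the mean and SD (n = 4 each, and n = 2 for each culture day). The 3 receptor genes lie higher in all TORIN1 samples, and Fgf1 lies lower in all KO samples.

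The KO samples ask whether loss of Erbb3 changes FGF gene expression in the E16 gland. Erbb3 itself had 35.1, 32.0, 73.6 and 68.6 CPM in glands labelled KO, against 89.7, 69.6, 124 and 118 CPM in WT. The KO mean was 52.3 ± 21.8 CPM and the WT mean 100.4 ± 25.5 CPM (SD, n = 4 each), a ratio of 0.521, with an exact two-sided permutation p of 0.0571. Sample KO 3 lay above WT 2, and Erbb3 transcripts were present in all libraries labelled KO. The labels do not say which exons were deleted.

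No FGF member was called in KO glands, 0 of 7, against 7.03% of 14991 genes. At an unadjusted p under 0.05 there were 2, Fgf1 and Fgfr3, and DESeq2 called 1, Fgf1. Fgf1 had 42.8, 34.2, 49.4 and 44.4 CPM in KO, against 55.5, 55.2, 62.2 and 67.96 CPM in WT. All KO samples were below all WT samples (log2 fold change -0.50 ± 0.15, adjusted p = 0.0554), and the gene was called without WT 2 (adjusted p = 0.0351) and without normalization factors (0.0357). Fgfr3 had 4.74, 5.13, 6.94 and 5.45 CPM in KO, against 4.63, 7.85, 15.2 and 8.88 CPM in WT, which overlapped (log2 fold change -0.72 ± 0.31, adjusted p = 0.133).

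Fgf10 had 39.8, 33.8, 29.5 and 30.9 CPM in KO, against 28.96, 25.6, 34.5 and 33.9 CPM in WT, and the log2 difference ± 2 SE was -0.19 to 0.43. Fgfr1 had 299, 334, 329 and 326 CPM in KO, against 200.4, 289, 362 and 396 CPM in WT, and Fgfr2 33.2, 46.4, 60.4 and 55.8 CPM, against 51.6, 47.3, 65.5 and 69.98 CPM. All 3 genes overlapped between the groups. The interval was -0.49 to 0.18 for Fgf7, -0.34 to 0.43 for Fgfr1, -0.65 to 0.13 for Fgfr2 and -1.56 to 0.69 for Fgfr4. Differences within those intervals were not excluded by these samples. Fgfr4 had 1.32, 6.67, 0.919 and 4.83 CPM in KO, against 3.12, 6.63, 6.51 and 2.50 CPM in WT, beside muscle marker sums of 52.8 to 539 CPM in KO and 123 to 1075 CPM in WT. Of the pathway lists, Etv1 (-1.68 ± 0.25) and Kit (-0.58 ± 0.16) were lower and Etv4 higher (0.92 ± 0.21) among 19 feedback inhibitors and targets (list median -0.20, beside -0.04 for all genes), and the adaptor gene Frs2 was lower (-0.91 ± 0.20). None of 6 other ligands and 9 coreceptors was called. Epithelial markers summed to 2640.0 to 3594 CPM in KO and 3107 to 4131 CPM in WT, and mesenchymal markers to 10075 to 14118 CPM in KO and 11402 to 16196 CPM in WT. Macrophage markers summed to 163 to 306 CPM in KO, against 131 to 161 CPM in WT, with 3 of 6 called higher, and Schwann cell markers to 69.6 to 92.8 CPM in KO, against 53.7 to 66.7 CPM in WT, with 1 of 5 called higher. Neither sum overlapped between the groups, and their part in the members' values was not tested. The number of all genes called ran from 3 to 3723 when 1 sample was left out.

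The culture series follows epithelium over 3 days with NRG1. Fgfr1 and Fgfr2 were lower at day 3 than at day 2, which were 2 of 5 members, against 49.3% of the 5171 genes of that table. Fgfr1 had 1592 and 1549 CPM at day 2, 722 and 909 CPM at day 3 and 776 and 685 CPM at day 4. The fall at day 3 (log2 fold change -0.95 ± 0.11, adjusted p = 0.00284) was lost without day 2 sample 1 (adjusted p = 0.0511). Fgfr2 had 376 and 393 CPM at day 2, 259.7 and 299.8 CPM at day 3 and 234 and 201 CPM at day 4, with log2 fold changes of -0.46 ± 0.09 and -0.36 ± 0.10. The first was lost without either day 2 sample, and the second without day 3 sample 2 or day 4 sample 2 and with the replicate block (adjusted p = 0.0514).

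At day 4 over day 3, 3 of 5 members were called, against 46.6% of all genes: Fgfr2 and Fgf1 fell and Fgf7 rose. Fgf1 had 256 and 235 CPM at day 2, 260.5 and 244 CPM at day 3 and 197 and 199.6 CPM at day 4 (log2 fold change -0.35 ± 0.07, adjusted p = 0.00947). Fgf7 had 8.19 and 10.7 CPM at day 2, 4.98 and 24.7 CPM at day 3 and 55.7 and 39.1 CPM at day 4. Its day 3 samples differed 5-fold from each other, and its call (log2 fold change 1.69 ± 0.59, adjusted p = 0.0484) was lost in 7 of the alternatives. Fgfr3 had 67.4 and 69.2 CPM at day 2, 79.6 and 77.9 CPM at day 3 and 93.3 and 80.2 CPM at day 4 and was not called at either step. Of 12 feedback inhibitors and targets in that table, 3 rose and 3 fell at day 3. These shares were near those of all 5171 genes, of which 1239 rose and 1310 fell. At day 4, 4 of the 12 rose and 6 fell, beside 1272 and 1138 of all genes. The table lists 2 mesenchymal markers, which summed to at most 37.0 CPM.

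**Figure D5:**
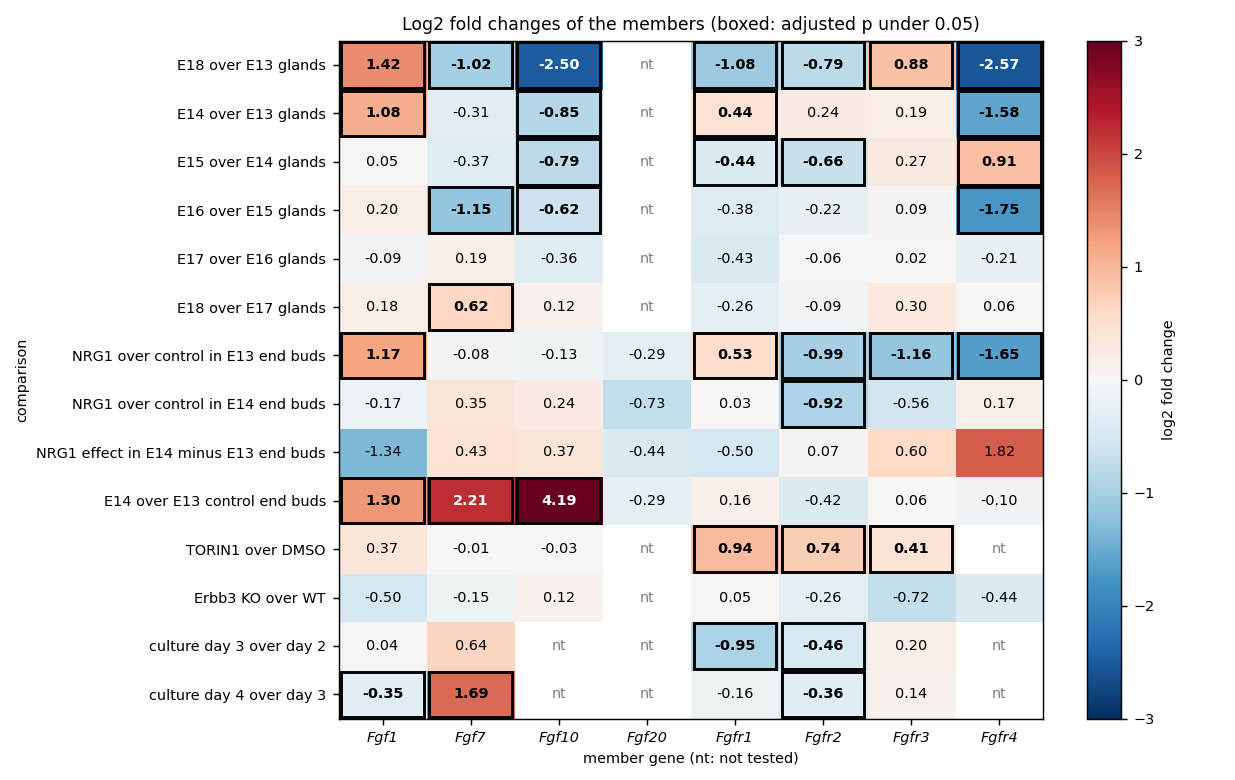
Log2 fold changes of 8 FGF genes (columns) in 14 comparisons (rows), printed in each cell over a colour scale that ends at 3 in either direction. Boxed cells passed an adjusted p under 0.05 and nt means not tested. Fgfr2 is boxed as lower with NRG1 at both titles (-0.99 and -0.92) and as higher with TORIN1 (0.74).

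Across the sets other than the culture days, levels per kilobase can be set side by side but not tested, since each table was normalized on its own. Levels of the culture days are scaled to the totals of the 5171 genes listed there, so only their order within a day is given. In end buds and in cultured epithelium Fgfr1 led in each group, with Fgfr2 close to it in E13 control buds (62.02 ± 5.89 and 60.8 ± 4.27 CPM per kb, n = 3). Among the ligand members Fgf1 led in each of those groups. It had 3.24 ± 0.255 CPM per kb in E13 control buds, 29.3 ± 7.88 with TORIN1 and 22.7 ± 4.54 with DMSO (n = 4 each). For the culture days only Fgf1 and Fgf7 were listed of these ligands, and other FGF ligands were not ranked in any group. Fgf10 was 0.196 ± 0.0729 CPM per kb in E13 buds with NRG1 and 0.203 ± 0.135 in their controls, beside 34.5 ± 1.74 in whole E13 glands. In E16 WT glands of the KO set the order was Fgfr1, Fgf1, Fgf10, Fgfr2, Fgf7, the same first 5 as in the E16 glands of the stage series. In WT, Fgf10 with 6.68 ± 0.919 CPM per kb and Fgfr2 with 5.67 ± 1.05 lay within their spread. At E16 of the stage series Fgfr3 with 1.36 ± 0.0807 CPM per kb stood above Fgfr4 with 0.364 ± 0.210. In WT of the KO set Fgfr3 with 1.28 ± 0.618 and Fgfr4 with 1.32 ± 0.617 could not be ordered.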

How the data were processed

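Total RNA was made into libraries with the NEBNext Ultra RNA kit, per the labels' protocols. Reads were processed with fastp, STAR and featureCounts on mm10, per the submitters' processing notes, which name neither versions nor a strand setting. The deposited files hold raw read counts per gene, in 5 tables. Every column was matched to a sample by its title. In the end bud table S columns were read as NRG1 and C columns as control. The culture table lists 5179 genes, of which 8 with symbols turned into dates were dropped.

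Genes were filtered with filterByExpr, scaled by TMM and tested with edgeR 4.0.16 (R 4.3.3) by the robust quasi-likelihood F test, with all groups of a table in 1 fit and Benjamini-Hochberg adjustment over all genes tested. A call is an adjusted p under 0.05, and the standard error is the log2 fold change over the square root of F. The fit was checked on simulated counts. Per-kilobase values use the union of GENCODE M21 exons. Ensembl IDs were matched to mm10 symbols for 97.8% of the genes in the gland table.

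The members and lists were chosen with earlier results of these data known. All tested members are named, and of each list up to 3 called genes with the largest change in each direction, except 1 listed gene that is not reported here. DESeq2 1.42.0, other scalings, no filter, a replicate block, 2-group fits and leaving out each sample were the alternatives. Same-numbered samples did not deviate together in every pair of any comparison, so the numbers were not taken to pair samples. No 2 replicates agreed within counting noise (chi-square per gene from 2.88 to 165).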

Additional observations from a re-analysis of the deposited data

Results flagged for a closer look

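In 4 of the 74 groups of 4 samples checked, 1 sample stood apart from the other 3 by a gap larger than Dixon's 95% critical value allows. Chance alone sets about 1 in 20 such groups apart. Fgf1 was low at 23.6 CPM in sample E13 B, against 27.1 to 27.3 CPM in the other E13 glands, and high at 68.3 CPM in sample E15 B, against 52.8 to 55.1 CPM in the other E15 glands. Fgf10 was high at 36.8 CPM in sample E18 B, against 24.5 to 26.1 CPM in the other E18 glands. Fgfr2 was low at 48.1 CPM in sample E16 A, against 56.9 to 58.1 CPM in the other E16 glands.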

How the results depend on the processing

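Over the alternatives, the members' fold changes kept direction and side of the threshold in 1104 settings, lost the call in 53, gained one in 34 and turned direction in 60. All 7 calls between E18 and E13 glands held in all 14 alternatives. DESeq2 called 2 members for NRG1 at E14, 2 for the difference of the NRG1 effects and 1 for KO, and among all genes 799 for the difference, 1807 for TORIN1 and 2637 for KO. Fits of the compared groups alone called 2 members for E17 over E16, 0 for E18 over E17 and 2 for NRG1 at E14, and among all genes 5221 for E14 over E13, 1804 for E17 over E16, 647 for E18 over E17 and 2065 for E14 over E13 control buds. Without normalization factors, 0 members and 3818 genes were called for E18 over E17, and 1 member and 1659 genes for KO. Without a filter, KO gave 2121 genes.

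The replicate block called 1 member for the difference of the NRG1 effects (Fgf1) and Fgfr2 in E14 over E13 control buds. It lost Fgfr3 for TORIN1 (adjusted p = 0.0532), and Fgfr2 (0.0514) and Fgf7 (0.0714) for culture day 4 over day 3, where 1 member stayed called. For day 4 over day 3 the same-numbered samples deviated apart (r = -0.451), and a crossed pairing, chosen after seeing the data, called 2 members and 2751 genes.

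With 1 sample left out, counts of members ran from 0 to 2 for E18 over E17, 1 to 3 for NRG1 at E14, 0 to 2 for the difference of the NRG1 effects, 0 to 3 for TORIN1, 0 to 1 for KO, 0 to 3 for day 3 over day 2 and 1 to 4 for day 4 over day 3. Counts of all genes ran from 523 to 743 for E17 over E16, 140 to 1084 for the difference, 144 to 3856 for TORIN1, 3 to 3723 for KO, 122 to 2134 for day 3 over day 2 and 1155 to 1957 for day 4 over day 3. The causes were not tested.

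Every fold change that turned direction was near 0 or not called. Without factors these were Fgfr3 in E17 over E16 (-0.0669), Fgf1 (-0.0198), Fgf10 (-0.0830) and Fgfr4 (-0.15) in E18 over E17, Fgfr1 for NRG1 at E14 (-0.0302), Fgf7 (0.0482) and Fgf10 (0.0182) for TORIN1, Fgf10 (-0.000352) and Fgfr1 (-0.0732) for KO and Fgf1 in day 3 over day 2 (-0.00329). Fgfr1 for NRG1 at E14 was -0.0117 with DESeq2-style factors, -0.00898 in DESeq2 and -0.00900 in the fit of the compared groups, and Fgf1 in day 3 over day 2 was -0.0162 in the first and -0.0161 in DESeq2. With the replicate block Fgf7 for TORIN1 was 0.0433.

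With 1 sample left out, the ranges that crossed 0 in glands were -0.0501 to 0.0921 for Fgf1 in E15 over E14, -0.0628 to 0.35 for Fgfr3 in E16 over E15, -0.0250 to 0.0893 for Fgfr3 and -0.62 to 0.22 for Fgfr4 in E17 over E16, and -0.0442 to 0.18 for Fgf10 and -0.10 to 0.46 for Fgfr4 in E18 over E17. For NRG1 at E13 they were -0.22 to 0.10 for Fgf7, -0.50 to 0.25 for Fgf10 and -0.65 to 0.18 for Fgf20. For NRG1 at E14 they were -0.47 to 0.21 for Fgf1, -0.33 to 1.67 for Fgf7, -0.52 to 1.91 for Fgf10, -0.16 to 0.25 for Fgfr1 and -0.11 to 0.48 for Fgfr4. For the difference of the NRG1 effects they were -0.24 to 1.75 for Fgf7, -0.37 to 2.05 for Fgf10 and -0.22 to 0.45 for Fgfr2. In E14 over E13 control buds they were -0.65 to 0.17 for Fgf20, -0.0587 to 0.35 for Fgfr1, -0.12 to 0.44 for Fgfr3 and -0.34 to 0.47 for Fgfr4. For TORIN1 they were -0.22 to 0.25 for Fgf7 and -0.88 to 0.37 for Fgf10, for KO -0.12 to 0.18 for Fgfr1, for day 3 over day 2 -0.0214 to 0.10 for Fgf1 and -0.92 to 1.39 for Fgf7, and for day 4 over day 3 -0.33 to 0.0169 for Fgfr1.

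Removing the factors moved the median log2 fold change of all genes by -0.34 in E18 over E13, -0.21 in E18 over E17 and -0.12 in KO. The E14 controls number 2 and the culture days 2 samples each, so those tests rest on few samples. A level under 3 counts, 0.110 to 0.331 CPM over the libraries, could not be told from 0. Counts per gene hold no splice form, and bulk RNA holds no cell type.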
